A study of Mus musculus with 6 samples.

Results

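The 10 CC chemokine genes examined here were Ccl2, Ccl3, Ccl4, Ccl5, Ccl6, Ccl7, Ccl8, Ccl9, Ccl12 and Ccl24, taken by symbol from the 54532 genes of a bulk RNA-seq count table. All 10 had enough counts to be tested, among 14522 tested genes. The libraries came from C57BL/6 mice aged 12 weeks, 7 days after permanent occlusion of the left anterior descending coronary artery. Of the 6 libraries, 3 were of controls (ITGA5 fl/fl), whose Itga5, the gene of the integrin α5 chain, carries recombination sites but is intact. The other 3 came from Myα5KO mice, which carry the same floxed gene and LyzM-Cre, a recombinase expressed from the Lyz2 locus that is active in neutrophils as well as in monocytes and macrophages. Hearts of individual mice were digested, Ly6G-positive cells (neutrophils) were depleted with magnetic beads, and CD11b-positive cells were retained. Because each library pools all cells of this fraction, fewer cells of a type and less RNA per cell cannot be told apart, and the cell that made a transcript is not known.

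CC chemokines are small secreted proteins with a pair of adjacent cysteines that attract leukocytes through receptors coupled to inhibitory G proteins. In the infarcted heart CCL2 and its relatives recruit monocytes through CCR2, whereas CCL3, CCL5, CCL6 and CCL9 act on CCR1. Mouse CCL8 acts on CCR8, and CCL24, also named eotaxin-2, attracts eosinophils through CCR3. Macrophages are both a source and a target of many of these proteins.

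None of the 10 chemokine transcripts passed the test between Myα5KO and ITGA5 fl/fl macrophages. With edgeR's quasi-likelihood test and an adjusted p of 0.05 or less as the threshold, 0 of 10 were called, against 8.75% of all tested genes (3.56% higher and 5.19% lower in Myα5KO). Ccl3, Ccl4, Ccl12 and Ccl24 had an unadjusted p under 0.05, which was 4 of 10, against 23.1% of all tested genes. DESeq2 called 0 of 10, against 9.24% of all genes it tested, with 1 of 10 at an unadjusted p under 0.05. For limma-voom these were 0 of 10, against 8.37%, with 2 of 10. For 0 of 10 chemokines did the libraries of both groups stand apart without overlap, compared with 28.6% of all tested genes. The median log2 fold change of the 10 was 0.10 and their median absolute log2 fold change was 0.22, beside 0.01 and 0.15 for all tested genes.

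The intervals of the fold changes bound the size of the differences. The 95% interval lay wholly under 2-fold for 10 of 10 chemokines and wholly above 0.5-fold for 9 of 10, the exception being Ccl24. For 6 of 10 it lay within 1.5-fold in either direction.

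Libraries totalled between 15424451 and 18419287 counts, of which the 10 chemokines took 0.135% to 0.228%. As a check of the labels, Itga5 was at 607 ± 43.2 CPM (counts-per-million, scaled by the trimmed mean of M-values) in the controls and 48.7 ± 1.48 CPM in Myα5KO libraries (SD, n = 3 each). The host gene of the Cre, Lyz2, fell by 0.92 on the log2 scale (SE 0.08, edgeR adjusted p = 4.3e-05). All 10 macrophage markers examined passed the filter, Adgre1, Csf1r and Cd68 among them, with a summed level of 17354 to 17567 CPM in the controls and 15330 to 16169 CPM in Myα5KO libraries. Of these markers Cd14 was lower, Fcgr1 was higher and 8 were not called, with the call of Fcgr1 lost without any 1 of the controls or Myα5KO replicate 2 (adjusted p = 0.0571 to 0.108).

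By position, 9 of the 10 genes lie on chromosome 11 (GRCm38) and are protein coding. A first group holds Ccl2 (82035571 to 82037453), Ccl7 (82045712 to 82047525), Ccl12 (82101845 to 82103400) and Ccl8 (82115185 to 82116799), all on the plus strand. A second group, 1408978 bases further on, holds Ccl5 (83525778 to 83530518), Ccl9 (83572919 to 83578636), Ccl6 (83587882 to 83593087) and Ccl3 (83647844 to 83649355) on the minus strand and Ccl4 (83662584 to 83664683) on the plus strand. Ccl24 lies apart, on chromosome 5 (135569937 to 135573049, minus strand). Ccl2 and Ccl6 each lie inside a gene of the opposite strand, Gm17268 and E230016K23Rik, with 0 exonic bases shared. Gm17268 had 0 counts, and E230016K23Rik had 9 to 26 counts in a library. The transcripts of 9 of 10 chemokines shared no word of 50 bases with another gene. For Ccl9, 59 of 2996 such words (1.97%) occurred elsewhere, and no word of 150 bases was shared by any of the 10.

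RefSeq promoter windows (250 bases upstream of the start, GRCm38.p6) were matched by symbol for 5 of the 10 genes, Ccl3, Ccl6, Ccl8, Ccl9 and Ccl12. The 100 bases before the start are shown for the 3 genes with a match there to the TATA box (TATAAA), AP-1 (TGANTCA) or NF-kappaB motifs, in order to set the levels of neighbouring chemokines and of NF-kappaB genes given further on beside the sequence. Each is written 5′ to 3′ on the strand of its gene, with the matches in capitals.
Ccl8, chr11:82115085-82115184, plus strand: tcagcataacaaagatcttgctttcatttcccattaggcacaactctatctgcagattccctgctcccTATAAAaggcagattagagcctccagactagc
Ccl12, chr11:82101745-82101844, plus strand: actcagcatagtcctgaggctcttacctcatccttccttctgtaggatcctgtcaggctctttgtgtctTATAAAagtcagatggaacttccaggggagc
Ccl9, chr11:83578637-83578736, minus strand: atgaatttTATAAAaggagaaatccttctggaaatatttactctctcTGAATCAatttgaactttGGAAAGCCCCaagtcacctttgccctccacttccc

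Ccl8 and Ccl12 held TATAAA at nearly the same distance from the start, -32 to -27 and -31 to -26, and Ccl9 held it at -92 to -87. The window of Ccl9 was the only one of the 5 with a match to AP-1 (-53 to -47) or to NF-kappaB (-35 to -26, on the opposite strand). Over 32851 promoter windows of the same length, searched on both strands except for TATAAA (strand of the gene), 7.59% held TATAAA, 6.75% held the AP-1 letters and 3.90% held the NF-kappaB motif. The ETS letters GAGGAA were found in Ccl3, Ccl8 and Ccl12 and in 23.3% of all windows. The ISRE letters GAAANNGAAA (2.98% of all windows) and the C/EBP letters TTGCNNAA (9.56%) were found in 0 of the 5. These are matches of letters and not measured binding.

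To compare levels between genes, FPKM values, which are divided by gene length, were used. Ccl4 and Ccl3 were the most abundant, at 334 ± 28.1 and 319 ± 15.5 FPKM in ITGA5 fl/fl macrophages (SD, n = 3). They were followed by Ccl6 at 253 ± 81.4, Ccl7 at 229 ± 59.2, Ccl8 at 160 ± 16.9, Ccl2 at 143 ± 24.8 and Ccl9 at 116 ± 22.7 FPKM. Neighbours in this order overlapped in their control libraries from Ccl4 down to Ccl9. Ccl12 at 74.9 ± 13.9, Ccl5 at 19.2 ± 2.34 and Ccl24 at 11.9 ± 5.93 FPKM each lay below the gene before them without overlap. In Myα5KO macrophages the order was alike, except that Ccl7 (225 ± 13.4 FPKM) stood above Ccl6 (204 ± 30.3 FPKM).

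**Figure D1:**
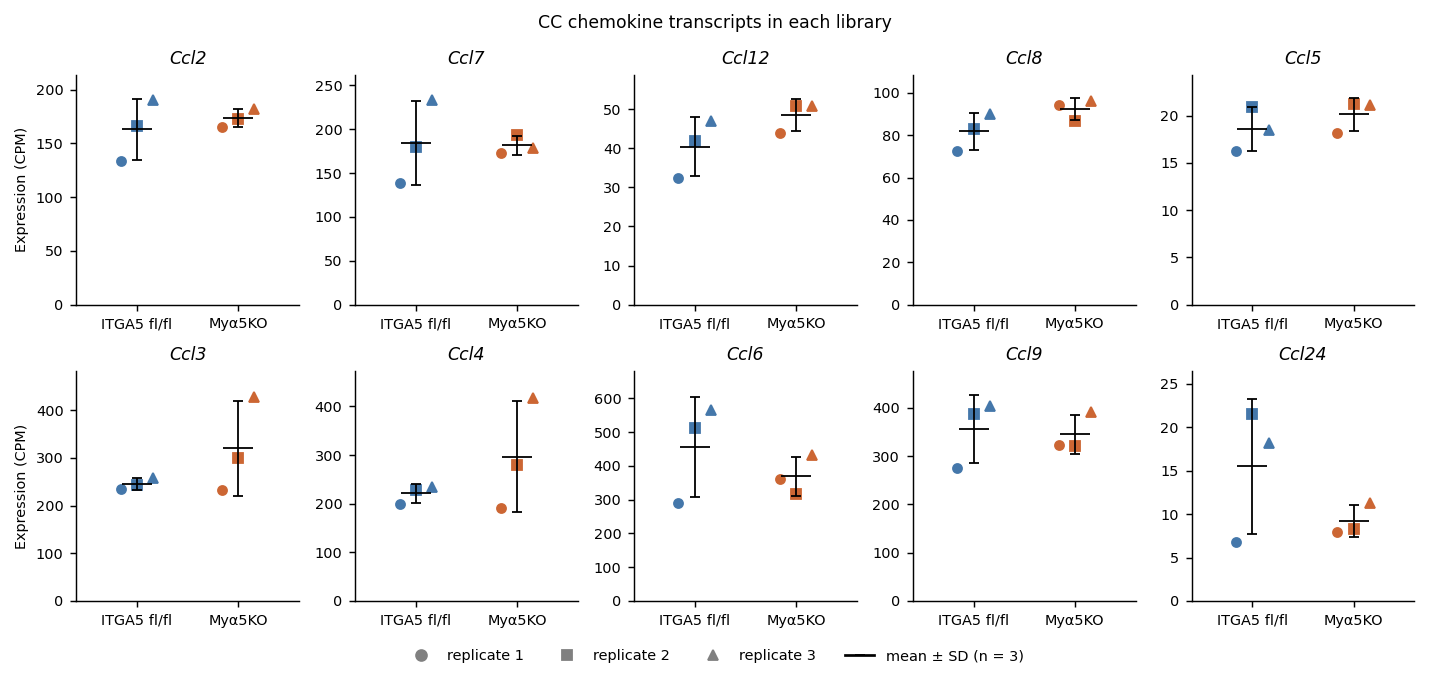
Expression of the 10 CC chemokine genes in CPM (vertical axes, each from 0) in 3 ITGA5 fl/fl and 3 Myα5KO libraries, with a symbol for each replicate number and the mean ± SD in black. For every gene the 2 groups overlap, ITGA5 fl/fl replicate 1 is the lowest control, and the spread is wide among controls for Ccl6 and Ccl24 and among Myα5KO libraries for Ccl3 and Ccl4.

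The CCR2 ligands were examined first. Values are given in CPM, in the order of replicates 1, 2 and 3. Ccl2, which encodes the main monocyte chemoattractant of the infarct, was at 134, 166 and 190 CPM in ITGA5 fl/fl and at 166, 173 and 182 CPM in Myα5KO macrophages. The 3 Myα5KO values lay inside the range of the controls. The group means were 163 ± 28.4 and 174 ± 8.36 CPM, and the log2 fold change was 0.09 (SE 0.10, 95% interval -0.13 to 0.31, edgeR adjusted p = 0.661). Ccl7, a second monocyte attractant whose gene is the next along the chromosome, was at 139, 180.3 and 234 CPM in the controls and at 173, 193 and 179 CPM in Myα5KO libraries. Here too the Myα5KO libraries fell within the controls. Its log2 fold change was -0.02 (SE 0.13, 95% interval -0.31 to 0.26, adjusted p = 0.941 by edgeR), with a sign that depended on the scaling and on the libraries used. Over the libraries, Ccl2 had 0.814 to 1.02 counts for each count of Ccl7.

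Ccl12, a close mouse relative of Ccl2, was at 32.3, 41.8 and 47.1 CPM in the controls and at 43.9, 50.8 and 50.8 CPM in Myα5KO macrophages. A single Myα5KO library, replicate 1, fell within the control range and the others lay above it. The log2 fold change was 0.26 (SE 0.11, 95% interval 0.02 to 0.51, unadjusted p = 0.0376 and adjusted p = 0.183 by edgeR), and it was 0.13 without ITGA5 fl/fl replicate 1. Within a library, Ccl2 had 4.14, 3.98 and 4.04 counts for each count of Ccl12 in the controls and 3.77, 3.41 and 3.58 in Myα5KO libraries. The ratios of both groups did not overlap. This pair was 1 of 9 pairs looked at, was chosen with the values known, and carries no test.

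Ccl8, at 72.7, 83.1 and 90.0 CPM in the controls and 94.3, 86.5 and 96.2 CPM in Myα5KO libraries, is the last gene of the first chromosomal group. Replicate 2 of Myα5KO fell within the controls, and replicates 1 and 3 lay above them. The means of 81.9 ± 8.72 and 92.3 ± 5.18 CPM gave a log2 fold change of 0.17 (SE 0.08, 95% interval -0.0013 to 0.35, edgeR adjusted p = 0.220).

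The genes of the second chromosomal group came next. Ccl3, which encodes macrophage inflammatory protein 1α, was at 235, 242 and 258 CPM in the ITGA5 fl/fl libraries. In the Myα5KO libraries it was at 232, 300.2 and 428 CPM. The controls were close together, whereas the Myα5KO values ran from just below the lowest control in replicate 1 to well above the highest control in replicate 3. The means were 245 ± 11.7 and 320.1 ± 99.7 CPM, and the log2 fold change was 0.38 (SE 0.15, 95% interval 0.05 to 0.72, unadjusted p = 0.0272 and adjusted p = 0.153 by edgeR).

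Ccl4, which encodes macrophage inflammatory protein 1β and lies next to Ccl3 on the opposite strand, was at 199.6, 229 and 235 CPM in the controls. It was at 191, 280.1 and 418 CPM in Myα5KO macrophages. The libraries stood in the same order as for Ccl3, with replicate 1 below every control and replicates 2 and 3 above every control. Its log2 fold change was 0.42 (SE 0.19, 95% interval 0.01 to 0.84, unadjusted p = 0.0452 and adjusted p = 0.204 by edgeR). Ccl3 and Ccl4 kept a narrow ratio to each other, with 1.02 to 1.21 counts of Ccl3 for each count of Ccl4 over the 6 libraries. Over the Myα5KO libraries Ccl3 itself ranged 1.85-fold and Ccl4 2.19-fold.

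The size of both differences depended on which Myα5KO library was left out, with replicates 3 and 1 acting in opposite directions. Without Myα5KO replicate 3, the log2 fold change was 0.12 for Ccl3 (edgeR adjusted p = 0.507) and 0.09 for Ccl4 (adjusted p = 0.726). Without Myα5KO replicate 1, both were called higher, at 0.56 for Ccl3 (edgeR adjusted p = 0.00783) and 0.65 for Ccl4 (adjusted p = 0.00666). Granulocyte genes moved beside these differences. Of 10 granulocyte markers, 8 were tested and 5 were called higher in Myα5KO, namely Ltf, Camp, Ngp, S100a8 and S100a9, which encode granule and calcium-binding proteins of neutrophils. The call of S100a9 was lost without ITGA5 fl/fl replicate 2 (adjusted p = 0.0588). The 3 other tested markers were not called, Mmp8 at 0.47 (adjusted p = 0.0665), Csf3r at 0.13 (0.378) and Retnlg in the other direction at -0.65 (0.311), and Cxcr2 had 7 to 8 counts in every library. The whole list summed to 187 to 226 CPM in the controls, and to 291, 246 and 372 CPM in Myα5KO replicates 1, 2 and 3. Csf3r, which monocytes also express, made up 141 to 173 CPM of these sums in the controls and 155 to 179 CPM in Myα5KO libraries. The 5 called markers alone summed to 44.8, 23.4 and 42.5 CPM in the controls and to 121, 60.1 and 182 CPM in Myα5KO libraries. Replicate 3 was thus highest for both, but replicate 1 exceeded replicate 2 for the granulocyte list, whole or called, and not for Ccl3 or Ccl4. Ly6g, the antigen used for depletion, had 0 to 2 counts in a library. The part of these cells in the levels of Ccl3 and Ccl4 was not tested.

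Ccl5, an attractant of T cells and monocytes that T and NK cells also make, was at 16.3, 20.9 and 18.5 CPM in the controls and at 18.2, 21.2 and 21.1 CPM in Myα5KO libraries. The groups overlapped widely, with a log2 fold change of 0.12 (SE 0.11, 95% interval -0.12 to 0.35, edgeR adjusted p = 0.576). The T and NK cell markers summed to 38.6 to 41.4 CPM in the controls and 46.2 to 52.1 CPM in Myα5KO libraries, where 7 of 12 could be tested and 0 were called by edgeR (4 at an unadjusted p under 0.05). Cd4 alone made up 17.8 to 21.2 CPM of these sums in the controls and 20.7 to 21.2 CPM in Myα5KO libraries. Cd3e, which defines T cells, had 2 to 6 counts in a library. Their part in the level of Ccl5 was not tested.

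Ccl6, which encodes a CCR1 ligand of mouse macrophages, varied widely among the controls, at 289, 513 and 566 CPM. In the Myα5KO libraries it was at 360.0, 316 and 431 CPM. Replicate 1 of the controls was the lowest of all 6 libraries, and the other controls were the highest. The means were 456 ± 147 and 369 ± 57.7 CPM, with a log2 fold change of -0.31 (SE 0.18, 95% interval -0.70 to 0.09, edgeR adjusted p = 0.348). Ccl9, the neighbouring gene and also a CCR1 ligand, was at 276, 387 and 405 CPM in the controls and at 323, 321 and 392 CPM in Myα5KO macrophages. Every Myα5KO value lay within the control range. The log2 fold change of Ccl9 was -0.04 (SE 0.12, 95% interval -0.31 to 0.22, adjusted p = 0.872 by edgeR). Within a library Ccl6 had 1.05, 1.32 and 1.40 counts for each count of Ccl9 in the controls and 1.11, 0.984 and 1.099 in Myα5KO libraries.

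Ccl24, a product of alternatively activated macrophages, had the lowest level per length and the widest spread. It was at 6.77, 21.6 and 18.2 CPM in the controls (101, 367 and 320 counts) and at 7.93, 8.35 and 11.3 CPM in Myα5KO libraries (149, 156 and 215 counts). Control replicates 2 and 3 exceeded every Myα5KO library, and control replicate 1 lay below every one of them. The means of 15.5 ± 7.75 and 9.20 ± 1.84 CPM gave a log2 fold change of -0.76 (SE 0.29, 95% interval -1.39 to -0.14, unadjusted p = 0.0206 and adjusted p = 0.131 by edgeR).

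A single control library separated Ccl24 and Ccl6 from a call. Without ITGA5 fl/fl replicate 1, Ccl24 was called lower at -1.11 (edgeR adjusted p = 0.000877) and Ccl6 at -0.55 (adjusted p = 0.0111). Without control replicate 2 the difference of Ccl24 was -0.46 (adjusted p = 0.446), and without control replicate 3 that of Ccl6 was -0.12 (adjusted p = 0.784). Markers of body cavity macrophages showed the same low control replicate. Their 7 genes summed to 103, 282 and 232 CPM in the controls and to 80.6, 66.6 and 81.8 CPM in Myα5KO libraries, and 5 of the 7 were called lower. These were Serpinb2, Prg4, Alox15, Ltbp1 and Selp, whereas Gata6, the transcription factor that defines peritoneal macrophages, was at 3.35 to 4.29 CPM in the controls and 3.03 to 3.37 CPM in Myα5KO libraries. Arg1, an enzyme of alternatively activated macrophages, was at 101, 592 and 291 CPM in the controls and at 127, 102 and 95.1 CPM in Myα5KO libraries. The part of these cells in the levels of Ccl24 and Ccl6 was not tested. Transcripts of eosinophils, the target cells of CCL24, were few, with 0 to 3 counts of Epx in a library. Of 8 eosinophil and mast cell markers 2 were tested and 0 were called by edgeR (0 at an unadjusted p under 0.05), and the list summed to 14.3 to 19.7 CPM in the controls and 16.5 to 18.3 CPM in Myα5KO libraries. Kit alone made up 12.7 to 17.1 CPM of these sums in the controls and 14.1 to 16.1 CPM in Myα5KO libraries, so the sums say little about eosinophils.

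**Figure D2:**
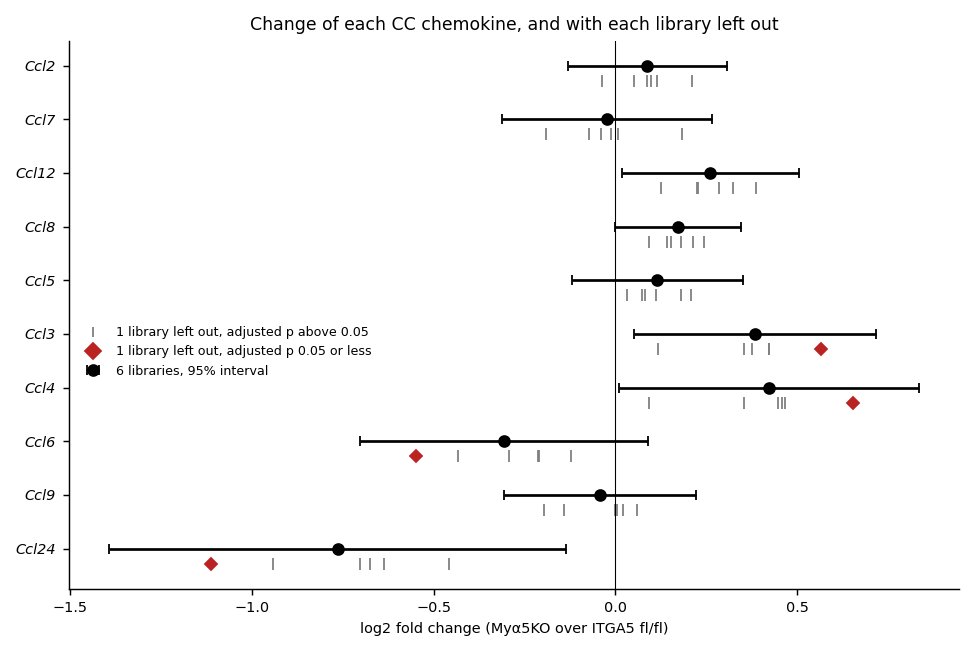
Log2 fold change of each chemokine (horizontal axis, Myα5KO over ITGA5 fl/fl) from 6 libraries, with its 95% interval in black, and below it the value with each library left out, as a grey tick or, where the edgeR adjusted p was 0.05 or less, a red diamond. The red diamonds are those of Ccl24 (-1.11) and Ccl6 (-0.55) without ITGA5 fl/fl replicate 1 and of Ccl3 (0.56) and Ccl4 (0.65) without Myα5KO replicate 1.

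Replicate 1 of the controls thus differed from its group in the same direction for the whole set. It was the lowest of the 3 controls for 10 of 10 chemokines and the lowest of all 6 libraries for 8 of 10, the exceptions being Ccl3 and Ccl4. Over all tested genes it was the lowest control for 35.9%. Relative to the mean of the other controls, its level was 34.0% for Ccl24, 53.5% for Ccl6, 67.1% for Ccl7, 69.6% for Ccl9, 72.7% for Ccl12 and 75.0% for Ccl2. The remaining 4 genes ran from 82.7% for Ccl5 to 94.0% for Ccl3, and the median of all tested genes was 99.8%. 

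Myα5KO replicate 3 was the highest of its group for 8 of 10 chemokines, against 38.2% of all tested genes, and the highest of all 6 libraries for 4. Relative to the mean of the other Myα5KO libraries, it was at 177% for Ccl4, 161% for Ccl3, 139% for Ccl24, 127% for Ccl6 and 122% for Ccl9. Ccl7 was the exception in the other direction, at 97.7%. Summed over the 10 genes, the chemokines were at 1400, 1885 and 2062 CPM in the controls and at 1609, 1751 and 2209 CPM in Myα5KO libraries, so that the lowest and the highest library came from different groups while the groups overlapped.

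**Figure D3:**
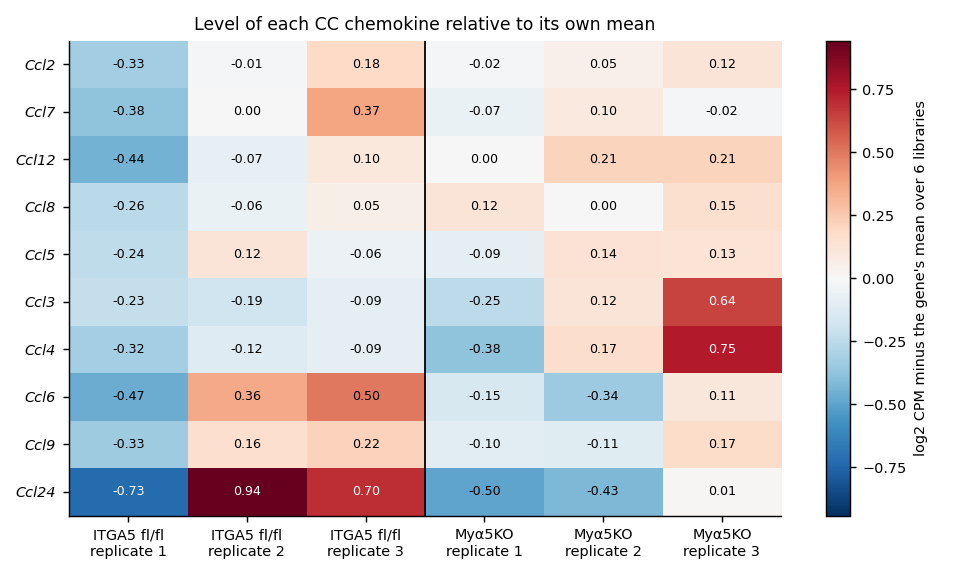
Log2 CPM of each chemokine minus the mean of that gene over 6 libraries (colour, with the value printed), by library, with a line between the groups. ITGA5 fl/fl replicate 1 is below the mean for all 10 genes, from -0.73 for Ccl24 to -0.23 for Ccl3, and Myα5KO replicate 3 reaches 0.64 for Ccl3 and 0.75 for Ccl4.

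The spread among replicates was larger for the chemokines than for most genes in the control group. The median coefficient of variation of the 10 genes was 17.98% over the controls, compared with 8.51% for all tested genes. In the Myα5KO group it was 10.1%, compared with 9.22%. For 8 of 10 chemokines the controls varied more than the Myα5KO libraries. Ccl3 and Ccl4 were the exceptions, with 4.78% and 8.55% in the controls and 31.2% and 38.6% in Myα5KO libraries. Ccl24 had the highest value in the controls, at 49.99%.

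The share of each gene in the set overlapped between the groups for 10 of 10 chemokines. As a share of the summed FPKM of the 10 chemokines, Ccl6 made up 14.95% ± 2.83 in the controls and 11.1% ± 1.59 in Myα5KO macrophages (SD, n = 3 each). Ccl24 made up 0.70% ± 0.29 and 0.38% ± 0.02. Ccl3 contributed 19.5% ± 2.48 and 22.1% ± 2.63, and Ccl4 20.3% ± 1.61 and 23.5% ± 4.70.

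Of 15 other CC chemokine symbols looked up, 14 were listed, and 4 passed the filter, Ccl17, Ccl22, Ccl25 and Ccl27a. edgeR called 0 of these 4 (1 at an unadjusted p under 0.05), and DESeq2 called 1. This gene was Ccl22, a ligand of CCR4, at 10.46, 15.2 and 12.9 CPM in the controls and at 16.6, 15.2 and 23.8 CPM in Myα5KO libraries, a difference of 0.53 on the log2 scale (SE 0.17, adjusted p = 0.0687 by edgeR). The other 10 symbols reached at most 16 counts in a library, and 5 of them had 0 counts in all 6 libraries.

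Among 9 receptors of the 10 chemokines, 7 were tested and 3 were called. Ccr2, the receptor of CCL2, CCL7 and CCL12, rose from 168 ± 18.8 to 250.4 ± 14.8 CPM (a log2 difference of 0.58 with SE 0.08, adjusted p = 0.00111 by edgeR). Among 8 monocyte markers, Ly6c2 (0.71) and Cx3cr1 (0.44) were among those called higher and Fn1 (-0.73) was called lower, with the call of Fn1 lost without ITGA5 fl/fl replicate 2 or 3 (adjusted p = 0.0781 and 0.0712). The summed level of this list was 3233 to 4929.8 CPM in the controls and 2482 to 3497 CPM in Myα5KO libraries, and its part in the level of Ccr2 was not tested. Ccr1, the receptor of CCL3, CCL5, CCL6 and CCL9, fell from 175 ± 15.9 to 119 ± 18.9 CPM (-0.56, SE 0.10, adjusted p = 0.00528), a call that was lost on the log2(FPKM + 1) scale (adjusted p = 0.0623). Ccrl2, an atypical receptor that binds chemerin and for which binding of CC chemokines has been debated, fell from 1185 ± 30.7 to 933 ± 8.99 CPM (-0.35, SE 0.07, adjusted p = 0.00651). Ccr3, the receptor of CCL24, was at 1.63 to 2.47 CPM in all libraries, and Ccr8, that of mouse CCL8, had 0 to 10 counts.

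Of 16 genes of receptor signalling, 2 rose and 1 fell. The regulator of G-protein signalling Rgs2 rose (0.49, SE 0.11, edgeR adjusted p = 0.0115), as did Pik3cg, the catalytic subunit of PI3K gamma (0.31, SE 0.08, adjusted p = 0.0213). Pik3r5, its regulatory subunit, fell by 0.66 on the log2 scale (SE 0.08, adjusted p = 0.000243). The call of Rgs2 was lost without ITGA5 fl/fl replicate 3 (adjusted p = 0.0657), and that of Pik3cg without ITGA5 fl/fl replicates 2 or 3 or Myα5KO replicate 2 (0.078 to 0.099).

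Of 17 transcriptional regulators looked up for these genes, 5 fell and 3 rose. Those that fell were 5 of the 9 genes of the NF-kappaB pathway in the list, with the largest difference for Nfkb1 (-0.69, SE 0.08, edgeR adjusted p = 0.000359), followed by Nfkb2 (-0.39), Relb (-0.38), Tnfaip3 (-0.34) and Nfkbia (-0.32). The other 4 were not called, with Nfkbie at -0.20 (adjusted p = 0.121), Rel at -0.16 (0.195), Rela at -0.14 (0.251) and Nfkbiz in the other direction at 0.10 (0.440). Those that rose included Irf7 (0.45) and Stat2 (0.29), which act in interferon signalling. Calls were lost when ITGA5 fl/fl replicate 2 or 3 or Myα5KO replicate 1 was left out for Tnfaip3 (adjusted p = 0.0715 to 0.120) and for Nfkbia (0.1002 to 0.160, and 0.0581 without Myα5KO replicate 2), and for Stat2 without ITGA5 fl/fl replicate 1 or 3 or Myα5KO replicate 2 (0.0692 to 0.106). In the same libraries 0 of the 10 chemokines were called, and Ccl9, whose promoter window held the NF-kappaB letters, had a log2 fold change of -0.04. Only 5 of the 10 chemokines had a promoter window, and the levels of these regulators are RNA, not activity. The part of these regulators in the levels of the chemokines was not tested.

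**Figure D4:**
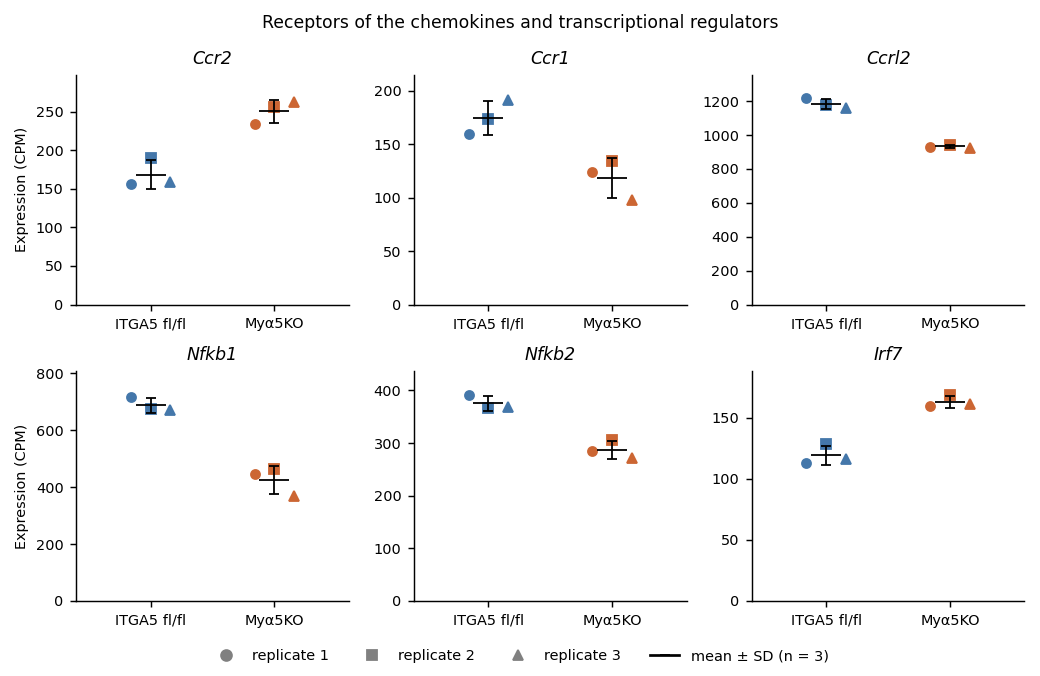
Expression in CPM (vertical axes, each from 0) of the receptors Ccr2, Ccr1 and Ccrl2 and the transcriptional regulators Nfkb1, Nfkb2 and Irf7 in 3 ITGA5 fl/fl and 3 Myα5KO libraries, with the mean ± SD in black. The groups do not overlap for any of these genes, with Ccr2 and Irf7 higher and the others lower in Myα5KO libraries.

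Of 8 genes of alternative macrophage activation, which Ccl24 and Ccl6 often accompany, Arg1 fell (-1.60, SE 0.40, edgeR adjusted p = 0.0261) and Clec10a rose (0.37, SE 0.10, adjusted p = 0.0359). The groups overlapped for Arg1, and its call was lost in 10 of 17 alternatives, including DESeq2 (adjusted p = 0.137) and leaving out ITGA5 fl/fl replicate 2 or 3 or Myα5KO replicate 2 or 3 (0.0597 to 0.116). That of Clec10a was lost without ITGA5 fl/fl replicate 1 or 2 or Myα5KO replicate 1 or 3 (0.0789 to 0.125). Neither Mrc1 (-0.12, adjusted p = 0.418) nor Chil3 (-0.06, adjusted p = 0.811) passed the test. Il13ra1 (0.20, adjusted p = 0.141) and Pdcd1lg2 (0.11, 0.846) were not called either. Il4ra (-0.31, adjusted p = 0.0507 by edgeR) fell short of a call, with groups that did not overlap, but DESeq2 and limma-voom called it. Retnla was at 9.92, 30.6 and 8.25 CPM in the controls and at 3.73, 3.85 and 31.7 CPM in Myα5KO libraries. It was called only without Myα5KO replicate 3.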

How the data were processed

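Per the labels and the methods of the study, polyadenylated RNA was sequenced as paired-end reads, and the authors aligned reads to GRCm38 with TopHat2 2.0.9, counted them per gene with HTSeq 0.6.1 and computed FPKM. The deposited counts are whole reads per gene without normalization. The deposited FPKM values are counts divided by gene length and by 1 constant per library. How the counting treated strand and multiply mapped reads is not given in the sources used here. The authors' own fold changes and p-values were not used.

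Counts were tested here with edgeR 4.0.16 in R 4.3.3 (quasi-likelihood test, TMM scaling, minimum count 10, minimum total 15, no covariate). P-values are two-sided and Benjamini-Hochberg adjusted over 14522 genes, and an adjusted p of 0.05 or less is a call. DESeq2 1.42.0, which the study names without a design, was an alternative. Named were the 10 chemokines, Itga5, Lyz2 and called genes of each list (the 4 with the largest change where more were called), and genes named beside these were chosen with values known. Members and lists were chosen with earlier results of these data known. Replicate numbers did not pair the libraries. The scripts were tested on simulated data. Counts come without molecular identifiers, so precision covers counting error. P-values set the difference between the groups against the spread between 3 hearts per group, which the fit draws toward that of all genes.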

Additional observations from a re-analysis of the deposited data

How the results depend on the processing

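Of 18 alternatives, 15 called 0 of the 10 chemokines. The adjusted p of 0.01 and the test against a 1.5-fold change only tightened the main fit, so their 0 was fixed in advance. The 1.5-fold test also kept the fold changes of the main fit, so its signs could not differ. Without a count filter, 2 of the 10 chemokines were called lower and 3 higher, against 6.28% of the 27687 genes then tested. The fit without a filter took the spread of all genes as equal (infinite prior degrees of freedom, 9.502 with the filter). Leaving out 1 library at a time gave 0 to 2 called lower and 0 to 2 higher, against 4.15% to 7.35% of all tested genes. The sign held in all 17 fits for 7 of 10 chemokines. It turned for Ccl2 without ITGA5 fl/fl replicate 1 (-0.038), for Ccl9 with scaling by library totals (0.038) and for Ccl7 with limma-voom (0.0078), log2(FPKM + 1) (0.0033), log2(FPKM + 0.1) (0.0034), library totals (0.057) and the replicate block (0.0060). With 1 library left out, Ccl7 ranged from -0.19 to 0.18, Ccl9 from -0.20 to 0.058 and Ccl2 from -0.038 to 0.21. Among the other CC chemokines, 1 was called with DESeq2, library totals or no count filter, and 0 to 1 with a library left out. The test against a 1.5-fold change called 0 receptors, 0 signalling genes, 0 regulators and 0 alternative activation genes. At an adjusted p of 0.01 these were 1 signalling gene, 5 regulators and 0 alternative activation genes, and with log2(FPKM + 1) as with log2(FPKM + 0.1) 1, 4 and 0. With a library left out the counts were 1 to 3, 5 to 8 and 0 to 2. Where no value above shows it, the cause was not tested. Library totals moved the median of all genes to 0.10, and 1212 genes were then called higher and 518 lower, against 517 and 754 with TMM. The correlations of same-numbered libraries were 0.05, -0.07 and 0.04, so numbers were not taken as pairs, and the replicate block left 0 of the 10 chemokines called, with 1181 genes called in all.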
